A study of Mus musculus with 11 samples.

Results

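Cathepsins are the peptidases of the lysosome, and their mRNAs were measured here in whole mouse ovaries of 3 ages. The genes described are 10 cathepsins, Ctsa, Ctsb, Ctsc, Ctsd, Ctsh, Ctsl, Ctso, Ctss, Ctsw and Ctsz, out of 54232 genes in the count table. They were taken by symbol. The set was chosen by measured values of these samples, since it was drawn up with the higher Ctss and lower Ctsl of older ovaries in view. Their differences between ages are therefore given as values. Where the text says which members were past edgeR's threshold, that describes the set beside all genes and tests nothing about it. All 10 passed the filter on low counts, as did 20331 genes in all.

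The ovaries came from wild-type mice aged 2 months (4 libraries), 18 months (4 libraries) and 24 months (3 libraries), with no treatment, and stand for reproductively young, reproductively old and post-reproductive animals. The library names of the oldest group carry 22 months and those of the youngest 8 weeks, so the oldest age is uncertain. The sources used here give no strain, cycle stage or number of animals behind a library, and every p-value below measures only the spread between these samples, which may be technical. Libraries held 26061630 to 33407509 counts, except 18 month replicates 3 and 4 with 5231724 and 8892915. The counts of that pair agreed within sampling noise (chi-square of 1.10 per gene, against 28.7 for the next closest pair of an age), so both were added together and counted as 1 sample, which leaves n = 4, 3 and 3. Among these, 24 month replicate 3 stood apart, with a summed level of oviduct epithelium markers of 864 CPM against 18.1 to 27.8 in the 2 month samples, and values without it are given below. CPM are counts per library total scaled by TMM, edgeR's correction for library composition.

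Most cathepsins are made as inactive proenzymes, carried to the lysosome by mannose 6-phosphate receptors and cut to the active form in its acid interior. They degrade proteins that reach the lysosome by endocytosis, phagocytosis or autophagy, and some serve a particular task, such as the trimming of the invariant chain in antigen presentation by cathepsin S. In the ovary, cathepsin L is known as a gene induced by progesterone receptor in granulosa cells around ovulation, and macrophages are a rich source of cathepsins in many tissues.

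The class of a cathepsin lies in its active site. Of the 10, 8 are cysteine peptidases of the papain family, while cathepsin D is an aspartic and cathepsin A a serine peptidase. The coding sequence around the active-site cysteine is shown for the 8, since it is what makes them a family and is also a stretch where reads of different members might be confused. Each line gives 39 bases, 5′ to 3′, of the principal transcript in GENCODE release M21, with the codon of the catalytic cysteine in capitals.

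Ctsb: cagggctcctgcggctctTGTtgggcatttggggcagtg
Ctsl: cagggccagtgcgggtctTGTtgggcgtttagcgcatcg
Ctss: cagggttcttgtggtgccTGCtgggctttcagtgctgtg
Ctsc: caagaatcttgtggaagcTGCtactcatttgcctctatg
Ctsh: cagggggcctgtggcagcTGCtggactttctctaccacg
Ctsz: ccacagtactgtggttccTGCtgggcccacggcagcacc
Ctso: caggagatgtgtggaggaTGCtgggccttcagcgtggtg
Ctsw: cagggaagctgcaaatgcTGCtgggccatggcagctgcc

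The cysteine was written TGC in 6 members and TGT in Ctsb and Ctsl. It was codon 138 of 334 in Ctsl, codon 147 of 340 in Ctss and codon 108 of 339 in Ctsb. Ctsb and Ctsl shared 30 of the 39 bases, Ctsb and Ctss 27, and Ctsl and Ctss 24. Even so, no stretch of 50 bases of the principal transcripts of the 8 cysteine cathepsins occurred in the transcripts of another gene. For Ctsd, 760 of 2078 such stretches (36.6%) also belong to Gm49369, a gene model on the same strand that overlaps it and had 0 counts in every library. For Ctsa, 13 stretches (0.361%) were shared. On the opposite strand, exons of Fdft1 cover 16.3% of the Ctsb transcript and exons of Pltp 13.6% of that of Ctsa. The sources used here give no strand setting of the counting, so reads of those stretches cannot be assigned with certainty.

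At 24 months, 6 of the 10 cathepsins were past the threshold and higher than at 2 months, and 1 was past it and lower. The higher ones were Ctsb, Ctsc, Ctsh, Ctss, Ctsw and Ctsz, and the lower one was Ctsl. The threshold is an adjusted p of 0.05 in edgeR's quasi-likelihood test over all genes, by which 19.2% of all tested genes were higher and 15.8% lower (35.0% in either direction). At 18 months, Ctsc, Ctsh and Ctss were past the same threshold and higher than at 2 months, and no member was lower, against 6.04% and 5.51% of all genes (11.6% in either direction). Because these contrasts chose the set, nothing is read from its counts. The median log2 fold change of the 10 was 0.30 at 18 months and 0.42 at 24 months, both against 2 months, where that of all tested genes was 0.01 and 0.03. Both comparisons share the 2 month samples.

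**Figure D1:**
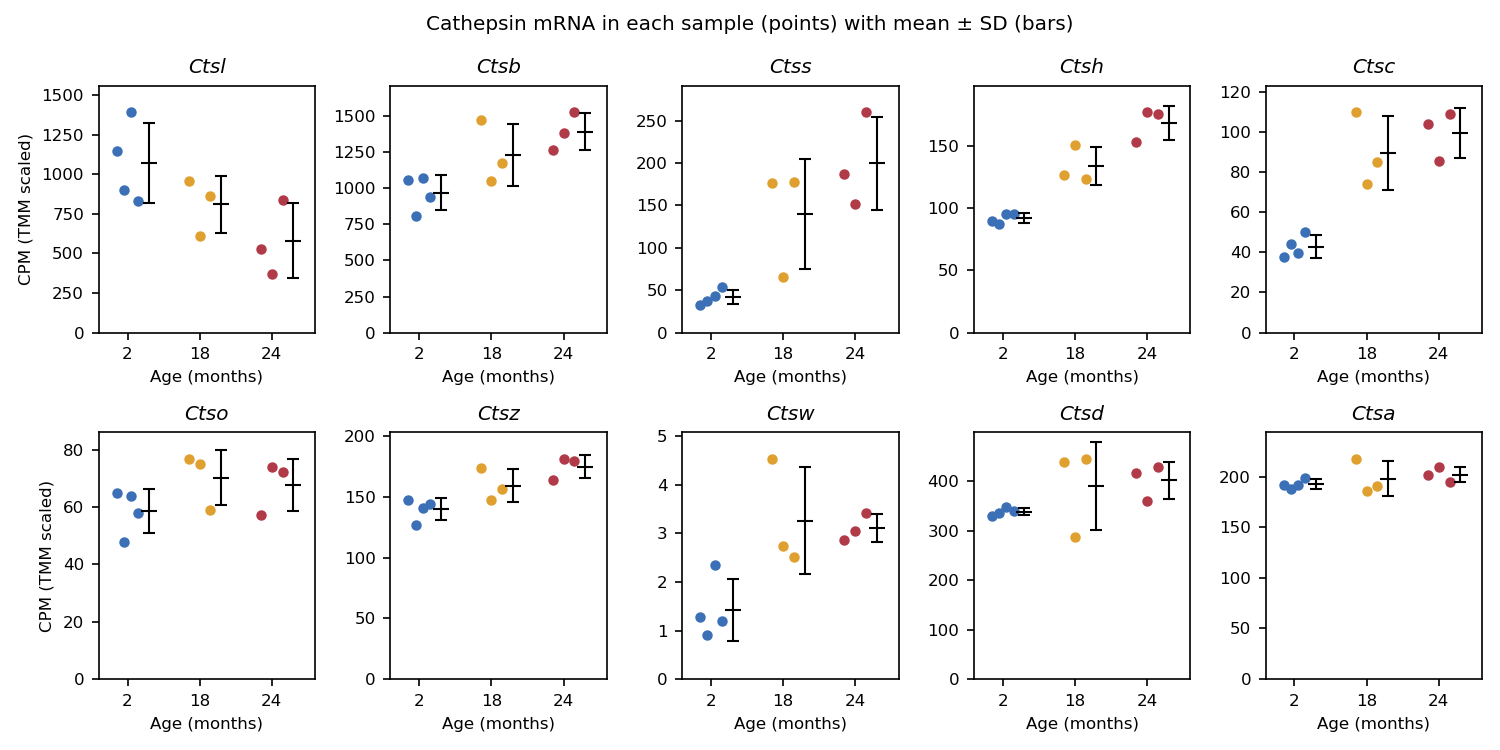
Level of each cathepsin in CPM (y axis) against age in months (x axis), with 1 point per sample and the mean ± SD beside the points (n = 4, 3 and 3). The 24 month points of Ctss, Ctsc and Ctsh lie above every 2 month point, while those of Ctsl overlap the 2 month points, as do those of Ctsa.

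Ctss encodes cathepsin S, the endopeptidase that cuts the invariant chain from MHC class II in macrophages, dendritic cells and B cells, and which stays active at neutral pH. The gene lies on chr3:95526786-95556403 (+ strand, mm10). At 2 months its level was 33.1, 37.5, 43.7 and 53.3 CPM in replicates 1 to 4. At 18 months it was 177 in replicate 1, 65.3 in replicate 2 and 178 in the summed sample, and at 24 months 187, 152 and 260 in replicates 1 to 3. Every older sample was above every young one, and the 18 month group was split, with replicate 2 close to the young ovaries. The means were 41.9 ± 8.74 (SD, n = 4), 140.0 ± 64.7 (n = 3) and 199.7 ± 54.9 CPM (n = 3). The log2 fold change was 1.74 ± 0.34 (SE) at 18 months and 2.25 ± 0.34 at 24 months against 2 months, the highest of the 10 members in both. Between 24 and 18 months it was 0.51 ± 0.36, and the samples of these ages overlapped. The 24 month value ranged from 2.03 to 2.44 over the alternative settings, and without 24 month replicate 3, the sample with the highest Ctss, it was 2.03. At 18 months the value stayed between 1.53 and 2.08, but the gene was no longer past the threshold without 2 month replicate 1 (1.63), without 2 month replicate 2 (1.70) or without the summed 18 month sample (1.53).

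Ctsl encodes cathepsin L, a broad lysosomal endopeptidase with roles in follicle rupture and in protein turnover. The gene lies on chr13:64359337-64370890 (− strand). At 2 months its level was 1148, 902.2, 1390.0 and 833.7 CPM in replicates 1 to 4. At 18 months it was 959.0 in replicate 1, 609.8 in replicate 2 and 860.7 in the summed sample, and at 24 months 528.8, 372.8 and 837.2 in replicates 1 to 3. The oldest group was itself uneven: replicate 3 lay just above the lowest young sample, so the groups overlapped, while the other two lay below every other sample. The means were 1068 ± 253 (n = 4), 809.8 ± 180.1 (n = 3) and 579.6 ± 236.3 CPM (n = 3). The log2 fold change was -0.40 ± 0.29 (SE) at 18 months and -0.88 ± 0.30 at 24 months against 2 months, and -0.48 ± 0.31 between 24 and 18 months. Ctsl was the one member with a negative value in all 3.

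At 24 months the log2 fold change of Ctsl was negative under every alternative, from -1.23 without 24 month replicate 3 to -0.65 without 24 month replicate 2. It was outside the threshold in 8 of the 16, with -0.67 for library totals in place of TMM scaling and -0.91 without the count filter. The others left out 2 month replicate 1, 2 or 3 (-0.86, -0.94 and -0.75), the summed 18 month sample (-0.88), or 24 month replicate 1 (-0.81) or 2.

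Ctsb encodes cathepsin B, an endopeptidase that also removes dipeptides from the carboxyl end, and lies on chr14:63122462-63145923 (+ strand). It read 1060.0, 810.7, 1070.0 and 938.5 CPM at 2 months, 1471, 1052 and 1176 at 18 months, and 1268, 1385 and 1527 at 24 months. All 3 samples of the oldest group were above all young ones, and the 18 month range overlapped both. The means were 969.7 ± 121.7, 1233 ± 215 and 1393 ± 130 CPM, and the log2 fold change was 0.35 ± 0.16 (SE) at 18 months and 0.52 ± 0.16 at 24 months.

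Cathepsins C, H and Z trim proteins from their ends. Ctsc (chr7:88278085-88310888, + strand) encodes dipeptidyl peptidase 1, which activates the granule proteases of mast cells, neutrophils and cytotoxic lymphocytes. Its level was 37.6, 44.2, 39.5 and 50.4 CPM at 2 months, 109.8, 74.1 and 84.8 at 18 months, and 103.9, 85.6 and 109.1 at 24 months. The 2 older groups were alike in range and lay apart from the young one. The log2 fold change was 1.06 ± 0.16 (SE) at 18 months and 1.21 ± 0.16 at 24 months, and 0.15 ± 0.17 between the older ages.

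Ctsh (chr9:90054152-90076089, + strand) encodes cathepsin H, an aminopeptidase. Its level was 89.8, 87.2, 95.5 and 95.1 CPM at 2 months, 126.6, 150.8 and 123.5 at 18 months, and 152.7, 176.6 and 175.1 at 24 months. It was the member whose 3 age groups did not overlap anywhere, each older group lying above the one before. In the step from 18 to 24 months it was the only one of the 10 with groups apart, where 6.73% of all tested genes had groups apart with the older age higher and 5.36% with it lower (12.1% in all). Its log2 fold change was 0.54 ± 0.10 (SE) at 18 months and 0.87 ± 0.10 at 24 months, and 0.33 ± 0.11 between the older ages. Without 2 month replicate 1 the 18 month value was 0.52 and not past the threshold.

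Ctsz (chr2:174427493-174439039, − strand) encodes cathepsin Z, also called cathepsin X, a carboxypeptidase. Its level ranged from 127.0 to 147.6 CPM at 2 months, then 147.3 to 174.0 in the 18 month and 163.8 to 181.2 in the 24 month samples. The oldest group was above the young one, and the difference was small, with a log2 fold change of 0.32 ± 0.10 (SE).

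Ctsw (chr19:5465240-5468498, − strand) encodes cathepsin W, a peptidase of cytotoxic T cells and natural killer cells. It was the rarest member, with 29 to 128 counts per sample. Its level was 1.28, 0.90, 2.36 and 1.19 CPM at 2 months, 4.54, 2.74 and 2.52 at 18 months, and 2.87, 3.04 and 3.43 at 24 months. All older samples were above all young ones. The log2 fold change was 1.20 ± 0.35 (SE) at 18 months, where it was not past the threshold, and 1.13 ± 0.35 at 24 months, where it was. Without 2 month replicate 3, the highest of the young samples, the 18 month value was 1.53 and past it.

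Ctso, Ctsd and Ctsa were not past the threshold in any comparison. Ctso (chr3:81932601-81956725, + strand) encodes cathepsin O, a widely expressed cysteine peptidase, and its ranges overlapped at all ages (47.98 to 64.7, 59.1 to 76.8 and 57.3 to 73.9 CPM). Ctsd (chr7:142375911-142388038, − strand) encodes cathepsin D, the main aspartic peptidase of the lysosome. It was even at 2 months (330.8 to 348.1 CPM), spread at 18 months (287.0, 438.9 and 445.7) and above the young range at 24 months (360.1 to 429.1), with a log2 fold change of 0.25 ± 0.15 (SE). Ctsa (chr2:164832873-164841032, + strand) encodes cathepsin A, the protective protein that holds beta-galactosidase and neuraminidase in a complex. Its mean was 192.6 ± 4.71, 197.9 ± 17.1 and 202.0 ± 7.08 CPM, and its log2 fold change at 24 months was 0.07 ± 0.09 (SE).

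**Figure D2:**
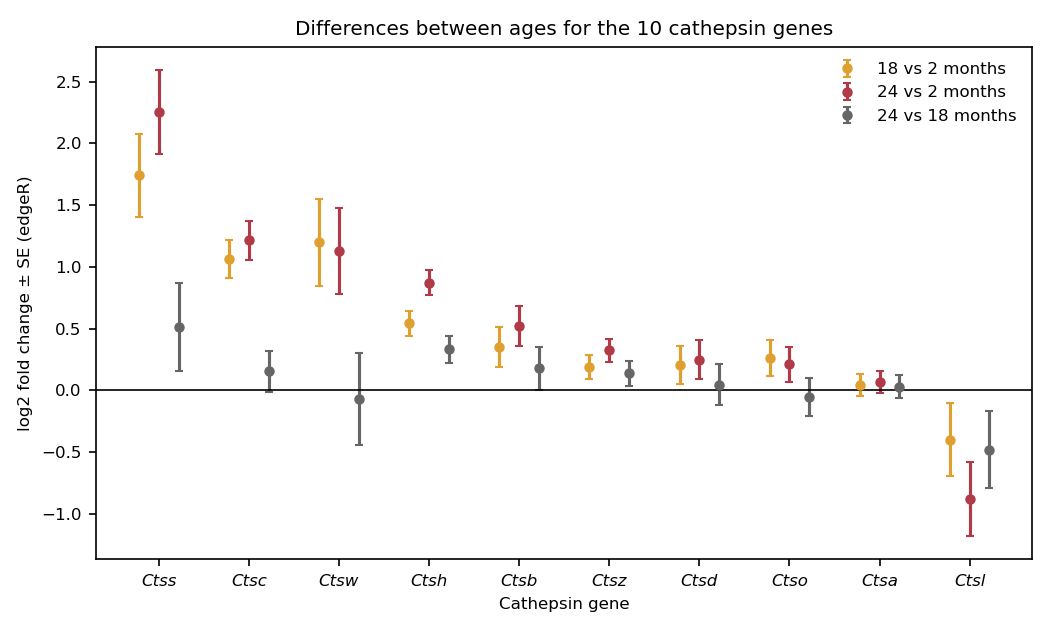
Log2 fold change ± SE from edgeR (y axis) of each cathepsin gene (x axis) for 18 against 2, 24 against 2 and 24 against 18 months, with n = 4, 3 and 3 samples at 2, 18 and 24 months. Ctss has the highest values against 2 months (1.74 and 2.25), and Ctsl is the one gene with 3 negative values (-0.40, -0.88 and -0.48).

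Counted by groups, 4 members had every 18 month sample above every 2 month sample (Ctsc, Ctsh, Ctss and Ctsw), where 13.7% of all tested genes did. At 24 months 7 had (those 4 with Ctsb, Ctsd and Ctsz), where 21.7% of all genes did. No member had all its older samples below the young ones, where 13.7% of genes at 18 months and 20.4% at 24 months did (27.3% and 42.1% in either direction). Between 24 and 18 months edgeR called no member, and 1 of the 10 had an unadjusted p under 0.05, as did 2108 of all 20331 tested genes. DESeq2 called no member either, and 194 genes in all. The same edgeR comparison called 1 gene of all tested (0.00492%). With the replicate number as a block, the numbers being taken to pair these 2 ages, it called 0 genes and no member.

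Which members were past the threshold at 24 months varied with the samples and the settings, and since these values chose the set, nothing is read from that. Ctsb was not past it without 2 month replicate 1 (log2 fold change 0.55), 2 (0.46) or 4 (0.52), or without 24 month replicate 2 (0.53) or 3 (0.47). Ctsw was not without the same samples, with 1.06, 0.98, 1.07, 1.15 and 1.08 in that order. Ctsz was not without 2 month replicate 1 (0.33), 2 (0.30) or 3 (0.30), or without 24 month replicate 2 (0.30) or 3 (0.32), and neither was it without the count filter (0.30). The count of called members ran from 3 (without 2 month replicate 1 or 2 or 24 month replicate 2) to 7. At 18 months it ran from 1 (without 2 month replicate 1) to 4 (without 2 month replicate 3, among others).

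To compare the members with each other, levels were divided by the length of the principal transcript, giving CPM per kilobase. At 2 months Ctsl stood far above the rest with 542 ± 129 CPM per kilobase, followed by Ctsb (204.5 ± 25.7), Ctsd (159 ± 3.45), Ctsz (97.01 ± 6.24), Ctsh (56.8 ± 2.52) and Ctsa (52.8 ± 1.30). Ctss was next with 30.9 ± 6.45, above Ctsc (17.2 ± 2.29), Ctso (16.9 ± 2.23) and Ctsw (1.15 ± 0.51). Of these neighbours in the order, Ctsh and Ctsa overlapped between samples, and so did Ctsc and Ctso. The length of Ctsd includes the 38.0% of its transcript that overlaps Gm49369. Reads from there may have been left uncounted, which was not tested. If so, the level and place of Ctsd are understated at every age, and the sums and shares below change with it.

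By 24 months the order had changed at the top and in the middle. Ctsl (294 ± 120 CPM per kilobase) and Ctsb (294 ± 27.3) had nearly the same mean and overlapped, and Ctsd (189 ± 17.4) came next. Ctss was next with 147 ± 40.5, overlapping Ctsd above it and Ctsz (121 ± 6.63) below it. Ctsh (104.0 ± 8.28), Ctsa (55.4 ± 1.95), Ctsc (39.9 ± 4.95), Ctso (19.5 ± 2.63) and Ctsw (2.51 ± 0.23) followed without overlap between neighbours. Ctss was thus in place 7 at 2 months, 5 at 18 months and 4 at 24 months. The order depends on the length used: with all exon bases of a gene, which are 6489 for Ctsl and 1358 for Ctss, Ctsl was in places 1, 3 and 5 and Ctss in places 6, 5 and 3 at the 3 ages.

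**Figure D3:**
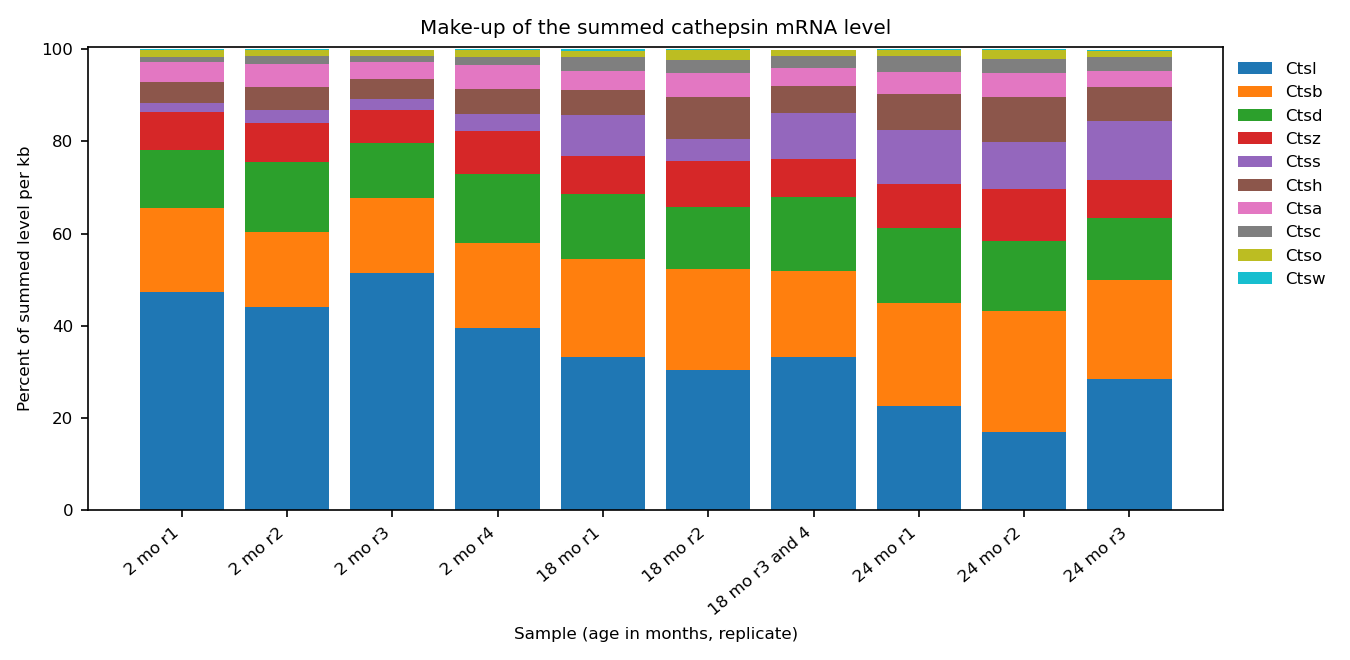
Share of each cathepsin, in percent, of the summed CPM per kilobase of the 10 genes (y axis), with 1 stacked bar per sample (x axis: age in months and replicate). The Ctsl share is 39.5–51.4% in the 2 month and 17.0–28.4% in the 24 month samples, and the Ctss share is 1.99–3.67% and 10.1–12.8%.

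Per length of the principal transcript, the mean summed level of the 10 differed between ages by less than its spread between samples. It was 1180 ± 154 CPM per kilobase at 2 months, 1260 ± 228 at 18 months and 1270 ± 201 at 24 months, and the 10 genes took 0.29 ± 0.04%, 0.32 ± 0.06% and 0.33 ± 0.04% of all scaled counts. The make-up of that sum differed more, which the choice of the set by Ctss and Ctsl favours. Ctsl gave 45.6 ± 5.04% of it at 2 months, 32.3 ± 1.59% at 18 months and 22.6 ± 5.70% at 24 months, and these 3 ranges did not overlap. Ctss gave 2.67 ± 0.72%, 7.89 ± 2.77% and 11.5 ± 1.35%, also without overlap, and Ctsb 17.4 ± 1.13%, 20.6 ± 1.63% and 23.4 ± 2.50%. These values depend on the length used. With all exon bases, Ctsl gave 24.1 ± 3.72%, 15.3 ± 0.59% and 10.02 ± 2.86%, still without overlap, and Ctss 4.58 ± 1.06%, 12.2 ± 4.19% and 16.7 ± 2.54%, with overlap between the older ages. The sum was then 678 ± 61.8, 811 ± 153 and 871 ± 108 CPM per kilobase, and all 24 month samples (792 to 995) lay above all 2 month samples (608 to 751).

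The ratio of Ctsl to Ctss per kilobase put the shift in 1 number per sample. It was 23.8, 16.6, 21.9 and 10.8 at 2 months, 3.73, 6.42 and 3.32 at 18 months, and 1.94, 1.68 and 2.22 at 24 months. The groups were apart at every step, and the oldest group was the tightest, although both of its genes varied widely there. Since the set was drawn up with higher Ctss and lower Ctsl in view, this separation is a description and tests nothing. In 24 month replicate 3 Ctsl and Ctss were both the highest of their age, and in 18 month replicate 2 both were the lowest of theirs, so the ratio does not show the variation that both genes shared. With all exon bases the ratio was lower throughout (3.28 to 7.25, 1.01 to 1.96 and 0.51 to 0.67), with the same order of ages.

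**Figure D4:**
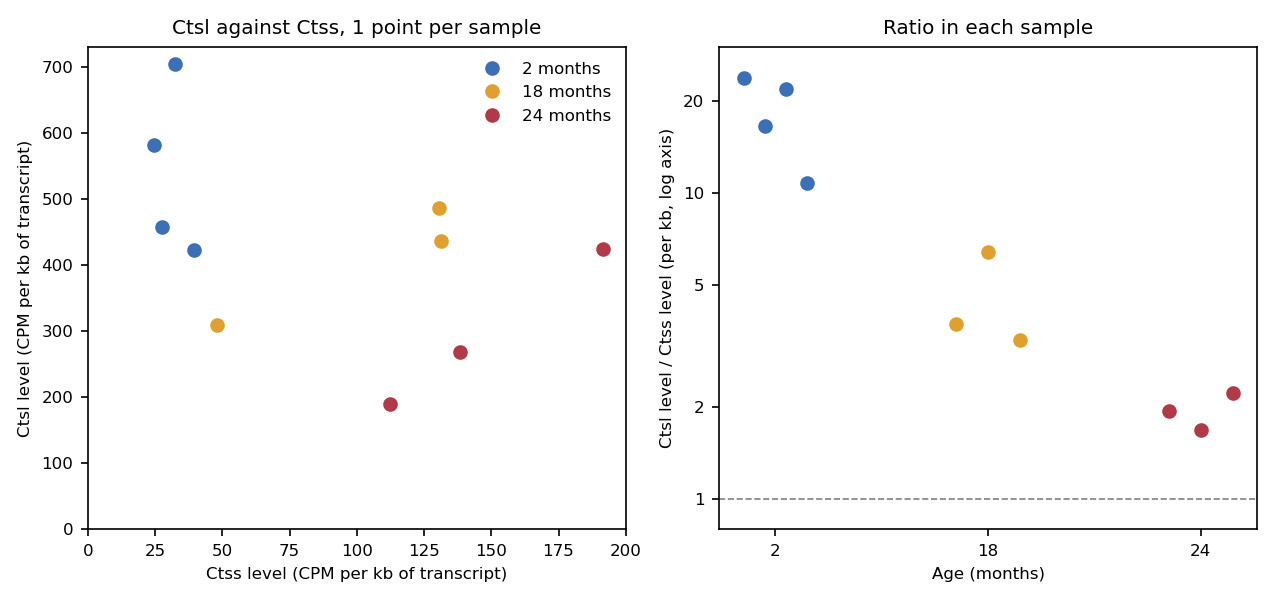
Left, Ctsl level (y axis) against Ctss level (x axis), both in CPM per kilobase of transcript, with 1 point per sample coloured by age. Right, the ratio of Ctsl to Ctss (y axis, log scale, dashed line at 1) by age, with ranges of 10.8–23.8, 3.32–6.42 and 1.68–2.22 at 2, 18 and 24 months.

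Most pairs of members varied together between samples of an age. Over the 10 samples, all 36 pairs of members without Ctsl had a positive Pearson correlation of log2 CPM, and of the 9 pairs with Ctsl 1 did. Once each gene was set relative to its age mean, 7 of the 9 pairs with Ctsl and 28 of the 36 without it were positive. The lowest values within ages were those of Ctsh with Ctsd (-0.75), Ctss (-0.50) and Ctsc (-0.40). Ctsl and Ctss went from -0.48 over all samples to 0.58 within ages, and Ctsl and Ctsb from -0.31 to 0.68. Ctss and Ctsd were alike within ages (0.93) and so were Ctsb and Ctsz (0.90). These values describe 10 samples, each gene pair being read from the same libraries, and carry no test.

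Among the tested genes with a mean of at least 5 CPM, those most like Ctss over the 10 samples were Mpeg1 (Pearson r 0.994), Clec7a (0.992), Ptafr (0.992), Ly9 (0.992) and Tlr13 (0.989). Mpeg1 was the most abundant of them, with mean levels of 66.7, 179 and 226 CPM at 2, 18 and 24 months. The genes most like Ctsl were Slc20a1 (0.979), Galc (0.946), Nadsyn1 (0.941), Hmgn5 (0.939) and Rfk (0.937). Slc20a1 averaged 143, 103 and 59.6 CPM. No gene matched Ctsl as closely as the 5 matched Ctss. Each r is over all 10 samples, so differences between ages enter it, and likeness within ages was not computed for these genes.

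Ctss and Ctsc were the most alike of the 4 members that were apart from 2 months at both older ages (r 0.956 over samples and 0.764 within ages), so the bases just before their starts are shown. The RefSeq promoter table (GRCm38.p6) held 7 of the 10 members, of which 5 (Ctsa, Ctsc, Ctso, Ctss and Ctsz) had a window free of their own exons. Each sequence is the 250 bases before the start, 5′ to 3′ on the strand of the gene, and capitals mark motif matches named below.

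Ctss, chr3:95526536-95526785 (+ strand): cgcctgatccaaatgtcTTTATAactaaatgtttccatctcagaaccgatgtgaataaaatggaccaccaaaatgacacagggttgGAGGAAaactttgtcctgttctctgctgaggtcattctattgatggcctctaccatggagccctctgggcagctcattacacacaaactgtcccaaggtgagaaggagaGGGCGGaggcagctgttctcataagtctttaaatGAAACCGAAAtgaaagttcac
Ctsc, chr7:88277835-88278084 (+ strand): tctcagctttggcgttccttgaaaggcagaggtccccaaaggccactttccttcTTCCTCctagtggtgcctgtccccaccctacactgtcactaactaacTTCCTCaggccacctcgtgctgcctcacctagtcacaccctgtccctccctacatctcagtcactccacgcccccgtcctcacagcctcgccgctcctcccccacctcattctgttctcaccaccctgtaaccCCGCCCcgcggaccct

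The motifs were searched on both strands. GAGGAA, the purine-rich core bound by PU.1 of myeloid cells and B cells, began 164 bases before the start in Ctss and, in Ctsc, both 196 and 149 bases before it on the minus strand (printed TTCCTC). It was found in 2 of the 5 member windows and in 23.3% of 32851 windows of the same length. The repeat bound by interferon regulatory factors, GAAA and GAAA with any 2 bases between, began 21 bases before the start of Ctss, in none of the other 4, and in 2.98% of all windows. GGGCGG, the box bound by Sp1, was present in 3 of the 5 and in 32.7% of all. Ctss held it 55 bases before the start, and Ctsc 16 bases before it on the minus strand (printed CCGCCC). The TATAAA match of Ctss (printed TTTATA, minus strand) lay 233 bases before the start, and such a match was in 12.4% of all windows. CCAAT was found in 2 of the 5 and in 33.8% of all. CACGTG, and the CLEAR element bound by TFEB, which is CACGTG with GT before it and AC after it, were in none of the 5 (6.02% and 0.24% of all). CACGTG was present in the windows that hold exons of their own gene, 245 and 98 bases before the start in Ctsd, 236 bases in Ctsl, and 12 bases in a second window of Ctsa. These are letter matches in a short window and not binding sites.

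In this and the later lists, numbers of genes that rose or fell are numbers of edgeR calls. Of all tested genes 19.2% rose and 15.8% fell at 24 months, and 6.04% and 5.51% did at 18 months. At 18 months DESeq2 called 4052 genes, and 6084 of the 20331 tested had an unadjusted p under 0.05 in edgeR. No list as a whole was tested against these shares. Of 13 other cathepsins listed, Ctse, Ctsf and Ctsk passed the count filter, and the rest had 0 to 8 counts in all samples together. Ctse, an aspartic peptidase of immune cells and epithelia, rose, with mean levels of 1.74, 2.61 and 12.4 CPM and 2.84 ± 0.68 (SE) on the log2 scale at 24 against 2 months (edgeR, adjusted p 0.0131, higher in 3 of 3 samples). Ctsk, the bone and macrophage cathepsin, ends 17423 bases before the start of Ctss. It averaged 17.6, 23.0 and 24.7 CPM, with a log2 fold change of 0.49 ± 0.22 (edgeR, adjusted p 0.102). Without 24 month replicate 1 its value was 0.74, past the threshold. In 18 against 2 months none of the 3 was called by edgeR or DESeq2, and none had an unadjusted p under 0.05.

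Cathepsins are held in check by cystatins, stefins and the proregion-like Ctla2a. Of 10 listed inhibitors 7 were tested, with a median log2 fold change of 0.29 at 24 months. Of these 2 rose and none fell, where 19.2% of all tested genes rose and 15.8% fell. The main secreted inhibitor Cst3 (330.0 ± 51.3, 405.9 ± 65.0 and 403.9 ± 26.3 CPM) gave 0.29 ± 0.15 (edgeR, adjusted p 0.159). With library totals alone its value was 0.49 and past the threshold. The cytosolic Cstb gave -0.13 ± 0.17 (adjusted p 0.575). Both inhibitors that rose were rare, at mean levels of 1.51 CPM (Cst6) and 1.21 CPM (Cst7, the inhibitor of cathepsin C in leukocytes) at 24 months. Neither was past the threshold without 24 month replicate 3, where the log2 fold changes were 1.98 and 1.75. Leaving out any 2 month sample or 24 month replicate 2 also put Cst6 outside it (2.75 to 3.40). Ctla2a, whose reads may be split with its near copy Ctla2b, gave 1.17 ± 0.60 (adjusted p 0.156), and 1.67, past the threshold, without 24 month replicate 3. At 18 months edgeR called none of the 7, DESeq2 called none, and none had an unadjusted p under 0.05.

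Of 6 other lysosomal peptidases, 2 fell at 24 months and none rose, where 15.8% of all tested genes fell and 19.2% rose. Lgmn encodes legumain, the asparaginyl endopeptidase that processes cathepsins B, H and L from their single-chain forms. Its level ranged from 1026 to 3944 CPM at 2 months, then 321.7 to 2415 in the 18 month and 231.3 to 448.4 in the 24 month samples. Every 24 month sample was below every young one, and the log2 fold change came to -2.87 ± 0.70 (SE, edgeR, adjusted p 0.0141). Scpep1, a serine carboxypeptidase related to cathepsin A, fell by 0.72 ± 0.19 on the log2 scale (adjusted p 0.0185), and without 24 month replicate 3 by 0.54, outside the threshold. At 18 months edgeR and DESeq2 called none of the 6, and 1 had an unadjusted p under 0.05.

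Genes that carry cathepsins to the lysosome or keep it acid were called in both directions, as were all tested genes (19.2% higher and 15.8% lower at 24 months). Of 10 sorting genes 1 rose and 1 fell at 24 months (median log2 fold change 0.03). The one that rose was Scarb2, the receptor of glucocerebrosidase (0.77 ± 0.24, adjusted p 0.0368), whose value was 0.32 without 24 month replicate 3 and outside the threshold. The one that fell was Gnptg, a subunit of the enzyme that makes the mannose 6-phosphate tag (-0.52 ± 0.16, adjusted p 0.0309), with -0.43 and outside the threshold without the same sample. Leaving out any 2 month sample or 18 month replicate 2 also put Scarb2 outside it (0.72 to 0.79). So did leaving out 2 month replicate 1, 2 or 3 or 24 month replicate 2 for Gnptg (-0.53 to -0.44). Of 14 subunits of the proton pump, 1 rose and 4 fell (median -0.37). The number that fell was 1 without 24 month replicate 2 or 3 and 2 without 2 month replicate 1 or 3. Atp6v1d was at -0.68 ± 0.15 (adjusted p 0.00917) and Atp6v1e1 at -0.87 ± 0.22 (adjusted p 0.0155), the latter outside the threshold without 24 month replicate 2 (-0.84) or 3 (-0.74). At 18 months edgeR and DESeq2 called none of the 10 sorting genes or of the 14 subunits, and none had an unadjusted p under 0.05.

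Of 11 lysosomal membrane genes, 2 rose and none fell at 24 months (median -0.02), where 19.2% of all tested genes rose and 15.8% fell. One was Laptm5 of leukocytes, with 1.89 ± 0.28 (adjusted p 0.00273), and the other Laptm4a, with 0.37 ± 0.11 (adjusted p 0.0278). Laptm4a was not past the threshold without 2 month replicate 2, 3 or 4 or 24 month replicate 2 or 3 (0.34 to 0.38). Of 23 acid hydrolases and their activators, 5 rose and 2 fell (median 0.15), where 35.0% of all tested genes were called in either direction. Without 2 month replicate 2 or 24 month replicate 2, 3 rose, and without 2 month replicate 1 or 24 month replicate 3, 1 fell. The lipase Lipa was among those that rose, at 86.5, 125.5 and 146.3 CPM and 0.76 ± 0.15 (adjusted p 0.00596). The partners of cathepsin A in its complex were at -0.58 ± 0.25 for Glb1 (adjusted p 0.0919) and -0.12 ± 0.13 for Neu1 (adjusted p 0.51). Glb1 was past the threshold without 2 month replicate 4 (-0.74) or 24 month replicate 2 (-0.85). Psap, the precursor of the saposins, was at 0.16 ± 0.23 (adjusted p 0.607). At 18 months, 3 of the 23 hydrolases and 1 of the 11 membrane genes had risen and none had fallen. Of the 4 genes of the TFEB family, which drives lysosomal genes, 2 had risen at 24 months and 1 at 18 months (median 0.38 at 24 months), the myeloid Tfec (1.69 ± 0.38, adjusted p 0.0102) and Tfe3 (0.32 ± 0.09, adjusted p 0.0215). Tfe3 was not past the threshold without 2 month replicate 1 or 24 month replicate 1 or 2 (0.28 to 0.29).

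**Figure D5:**
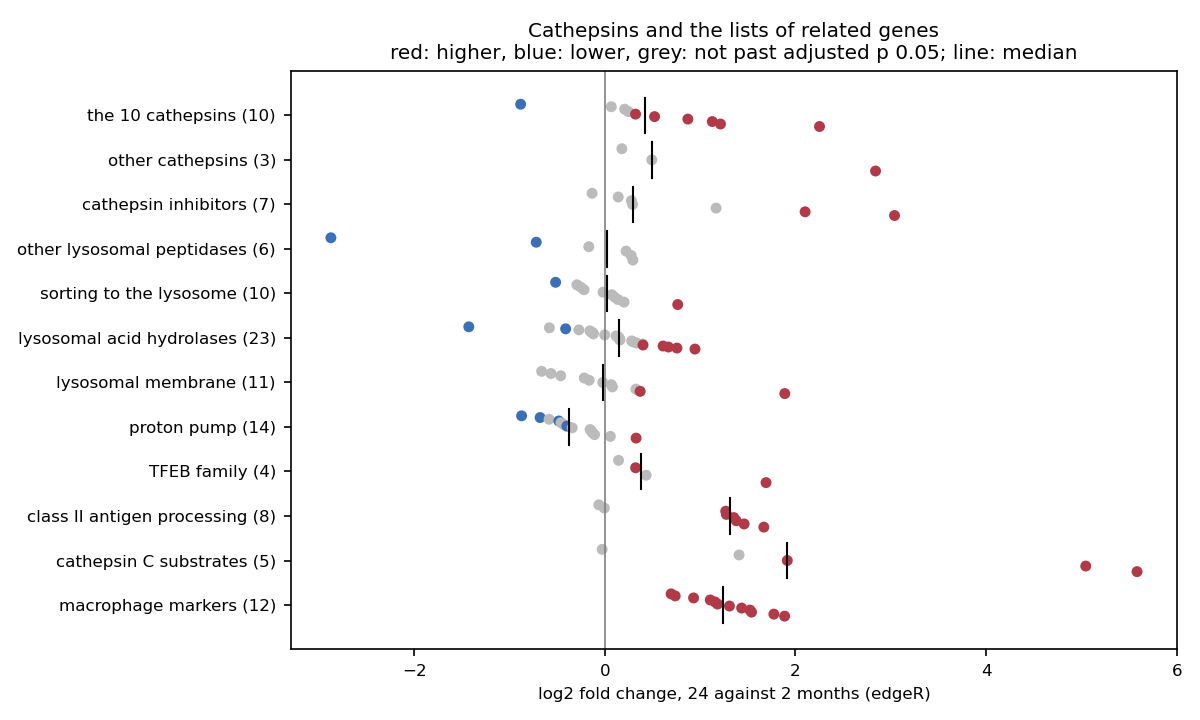
Log2 fold change of 24 against 2 months (x axis) for each tested gene of the cathepsins and of lists of related genes (y axis, number of tested genes in brackets), coloured by the edgeR call at an adjusted p of 0.05, with a line at the median. The proton pump list has a median of -0.37 with 4 genes lower, while the class II list (median 1.32) and the macrophage markers (median 1.25) lie to the right.

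The partners of Ctss in antigen presentation and those of Ctsc in granule proteases are lists of their own. Of 8 genes of MHC class II presentation, 6 rose and none fell at 24 months (4 and 0 at 18 months), with a median log2 fold change of 1.32. Cd74, the invariant chain that cathepsin S cuts, averaged 151.8 ± 70.2, 340.9 ± 70.9 and 365.7 ± 44.8 CPM. Its 24 month value, 1.27 ± 0.30 (SE) on the log2 scale, was past the threshold (edgeR, adjusted p 0.0119, higher in 3 of 3 samples). H2-Aa (1.46 ± 0.25, adjusted p 0.00406) and H2-DMa (1.35 ± 0.24, adjusted p 0.00455), a class II chain and a peptide-exchange chain, rose with it. Of 8 granule proteases activated by cathepsin C, 5 were tested, of which 3 rose and none fell (none called at 18 months by edgeR or DESeq2, with 1 at an unadjusted p under 0.05). Cma1, a mast cell chymase, ran from 0.512 to 40.3 CPM within the 24 month group, and its log2 fold change of 5.05 ± 1.29 (adjusted p 0.0165) came with overlapping groups and was not past the threshold without the count filter (5.02). Prtn3 stayed rare, at 0.821 to 1.48 CPM, with 1.92 ± 0.32 (adjusted p 0.00365). The lymphocyte granzymes Gzma (-0.03 ± 0.66, adjusted p 0.978) and Gzmb (1.41 ± 0.66, adjusted p 0.122) were not past the threshold, though Gzmb was without 24 month replicate 3 (1.90).

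Cell type markers differed between the ages along with the members. In RNA of whole tissue, fewer cells of a type and less RNA per cell cannot be told apart. All 12 macrophage markers rose at 24 months (9 of 12 at 18 months), with a median log2 fold change of 1.25, and their summed level was 345 to 478 CPM at 2 months, then 728 to 1070 in the 18 month and 968 to 1140 in the 24 month samples. Csf1r (1.16 ± 0.12, adjusted p 0.00138) and C1qa (1.31 ± 0.15, adjusted p 0.00164) had the smallest adjusted p, and no marker of the list was at 0. Without 24 month replicate 3, 9 of the 12 rose. These markers were higher at the older ages, as were Ctss, Ctsc, Ctsh and most class II genes, and their part in those differences was not tested. Between samples of an age, Ctsh and the macrophage sum gave no single pattern. At 18 months Ctsh was highest in replicate 2 (150.8 CPM), where the sum was lowest (728). At 2 months Ctsh was higher in replicates 3 and 4 (95.5 and 95.1 CPM) than in replicates 1 and 2 (89.8 and 87.2), and so was the sum. At 24 months Ctsh was lowest in replicate 1 (152.7 CPM), and the sum was lowest in replicate 2 (968). Of 8 cytotoxic lymphocyte markers 3 rose at 24 months and 2 at 18 months, or 5 at 24 months without 2 month replicate 3, with Cd3e at 3.29 ± 0.42 (adjusted p 0.00208) and Cd3d at 3.32 ± 0.64 (adjusted p 0.00592). Their sum was 2.22 to 8.98, 9.55 to 14.6 and 11.3 to 17.3 CPM beside the levels of Ctsw, and its part in them was not tested.

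Of 4 mast cell markers 2 were tested (4 were, and rose, without 24 month replicate 2 or any 18 month sample). Both rose at 24 months (Cpa3 5.08 ± 1.22, adjusted p 0.0132, and Tpsb2 4.93 ± 1.42, adjusted p 0.0255). Both genes overlapped between 2 and 24 months, and their sum ran from 1.22 to 85.1 CPM within the 24 month group. Tpsb2 was not past the threshold without 2 month replicate 2, 3 or 4 or 24 month replicate 1 (3.73 to 5.22). At 18 months edgeR and DESeq2 called neither gene, and neither had an unadjusted p under 0.05. The part of mast cells in the values of Cma1 and Ctsc was not tested.

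Some markers of the follicle and corpus luteum fell, and their values stand beside those of Ctsl. Of 8 granulosa cell markers, 4 fell and none rose at 24 months (3 and 0 at 18 months, median -0.98 at 24 months), among them Fshr (-1.80 ± 0.31, adjusted p 0.00421) and Esr2 (-1.75 ± 0.24, adjusted p 0.00233). Their summed level was 2910 to 3870 CPM at 2 months, then 1620 to 2940 in the 18 month and 1430 to 3630 in the 24 month samples. Not all 8 went down: 2 had a log2 fold change above 0 at 24 months, and 2 had one at 18 months. Of 6 luteal and steroidogenic markers 2 fell and none rose (median -1.12). Without 24 month replicate 1, 5 fell, and without 2 month replicate 1 or 3 or 24 month replicate 2 or 3, 1 fell. In the samples by age their sum was 26600 to 58100, 20600 to 32500 and 6090 to 22900 CPM. Star, which brings cholesterol into mitochondria, fell by 3.59 ± 0.50 on the log2 scale (adjusted p 0.00221) and Ptgfr by 1.92 ± 0.59 (adjusted p 0.0327). Ptgfr was not past the threshold without 2 month replicate 1 or 3 or 24 month replicate 2 or 3 (-1.79 to -1.56). At 18 months edgeR and DESeq2 called none of the 6, and none had an unadjusted p under 0.05.

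All 8 oocyte markers fell at both ages (median -4.58 at 24 months), Zp2 with -4.90 ± 0.69 (adjusted p 0.00233) and Ooep with -4.44 ± 0.65 (adjusted p 0.00273), with sums of 262 to 612, 33.0 to 71.2 and 5.41 to 43.9 CPM. The part of these cell types in the lower Ctsl was not tested. Of 7 ovulation genes 2 rose and 1 fell at 24 months, and at 18 months edgeR called none, with 1 called by DESeq2 and 2 at an unadjusted p under 0.05. Pgr, the receptor known to induce Ctsl and Adamts1, was at 2.48 ± 0.53 (adjusted p 0.00885), Areg at 3.18 ± 0.85 (adjusted p 0.0191) and Adamts1 at -0.97 ± 0.33 (adjusted p 0.0441). Areg had 0 to 19 counts per library and was not past the threshold without 2 month replicate 1 or 24 month replicate 2 or 3 (2.91 to 3.09). Adamts1 was not past it without any of 2 month replicates 1, 3 and 4, 18 month replicate 2 or the 3 samples of 24 months (-1.07 to -0.74).

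The 24 month replicate 3 stood apart in the oviduct epithelium markers, and the source of that signal was not tested. Of 6 oviduct epithelium markers 5 rose at 24 months (1 at 18 months, median 4.39 at 24 months), with the smallest adjusted p for Tppp3 (2.74 ± 0.62, adjusted p 0.0108) and Pax8 (7.05 ± 1.61, adjusted p 0.0109). Their sum was 18.1 to 27.8 CPM at 2 months, then 21.2 to 94.4 in the 18 month and 36.4 to 864 in the 24 month samples, where 864 was replicate 3. Without that sample 2 of the 6 rose. Pax8 overlapped between 2 and 24 months, while at 18 months it ran from 2.98 to 52 CPM, above every young sample. Without the same sample, the log2 fold change at 24 months was 2.03 for Ctss and -1.23 for Ctsl. Both kept their sign, and since these values chose the set, nothing more is read from that. Calls at 18 months changed with the samples in the fit, in most lists as over all genes. Over all genes edgeR called 2349, against 382 without 2 month replicate 1 and 375 without the summed 18 month sample. Values moved less: the log2 fold change of Zp2 at 18 months, for example, was -3.45, and -3.42 and -3.37 without these samples in that order. Without 2 month replicate 1, or without the summed 18 month sample, none of the class II genes, acid hydrolases, granulosa cell markers, oocyte markers or oviduct markers was past the edgeR threshold at 18 months, while 5 and 6 macrophage markers were. Between 24 and 18 months edgeR called no gene of the 18 lists. Of their 148 tested entries, 20 had an unadjusted p under 0.05 and DESeq2 called 4. Of all 20331 tested genes, 2108 had such a p in edgeR, and DESeq2 called 194 genes.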

How the data were processed

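Whole ovaries were sequenced as mRNA with a stranded library kit, as the labels' protocols state. The deposited values are raw counts per gene, made by the authors with FastQC, cutadapt, STAR and HTSeq on the mouse build mm10, per the submitters' processing notes. The sources used here give no versions, annotation or strand setting. Counting error limits genes of low counts most in the samples of fewest counts.

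Samples were grouped by age from the titles. The 10 members, the 18 lists of related genes (166 distinct genes), the named genes and the comparisons were chosen with earlier results of these data known. Named genes are the members, in each list the 2 genes with the smallest adjusted p at 24 against 2 months, genes with a known relation to a member, and the 5 genes most like Ctss and Ctsl by Pearson r of log2 CPM (prior count 2) among genes with an established symbol and a mean of at least 5 CPM. The result of 1 gene under this rule is not reported here.

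Genes were kept by filterByExpr, scaled by TMM and tested with edgeR 4.0.16 in R 4.3.3 (robust glmQLFit and glmQLFTest, two-sided) with all 3 ages in 1 model and 7 residual degrees of freedom, with Benjamini-Hochberg adjustment over all 20331 genes at 0.05. The biological coefficient of variation was 0.32. The SE is the log2 fold change over the square root of F. Adjusted p-values of listed genes in the text are from this fit at 24 against 2 months unless said otherwise. The scripts were tested on simulated data.

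Alternatives were DESeq2 size factors, library totals alone, no count filter, DESeq2 1.42.0, a replicate block, 11 separate libraries and each sample left out. Gene length by all exon bases was added after seeing the data. Same-numbered samples of 18 and 24 months deviated together from their age means (r 0.398, 0.283 and 0.148), so the numbers were taken to pair these ages. Between these 2 ages a pair of different numbers reached 0.144, and the labels do not say what a number shares. Among pairs with 2 months, replicate 2 and the summed 18 month sample reached 0.247, above the 0.148 of a same-numbered pair. The pairing is therefore uncertain. For same-numbered samples with 2 months r was -0.109 to 0.0741, which pairs nothing.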

Additional observations from a re-analysis of the deposited data

Results flagged for a closer look

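In the 2 month group, the one age with 4 samples, the CPM of 56 genes named in the text was searched for a sample far from the others, and chance flags about 1 in 20 such groups. There were 2. Cd74 stood at 257 CPM in 2 month replicate 3, against 110 to 121 in the other samples of that age. Tfec stood at 0.822 CPM in 2 month replicate 4, against 0.325 to 0.404. No cathepsin was among them.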

How the results depend on the processing

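Library totals in place of TMM moved the median log2 fold change of all genes by 0.18 at 24 months and 0.09 at 18 months, so differences under that size depend on the scaling. The share of called genes that were higher went from 54.9% to 73.0% at 24 months and from 52.3% to 66.7% at 18 months, both against 2 months, and all 7 members then called at 24 months were higher, Ctso among them and Ctsl not. Of 480 member values under alternatives, 10 had another sign, all in comparisons that were near 0 (-0.07 to 0.04) and not past the threshold. They were 4 for Ctso (0.00179 to 0.0673), 3 for Ctsw (0.0415 to 0.238), 1 for Ctsd (-0.138) and 1 for Ctsa (-0.0164) at 24 against 18 months, and 1 for Ctsa at 18 against 2 months (-0.0173). A further 6 moved by more than the spread between replicates, all with library totals. They were Ctsb (0.72), Ctsh (1.06), Ctsz (0.51) and Ctsa (0.25) at 24 against 2 months, and Ctsa at 18 against 2 months (0.13) and 24 against 18 months (0.13).

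For 18 against 2 months edgeR called 2349 genes, against 4052 by DESeq2, 1034 with the replicate block, 4000 with 11 separate libraries and 375 to 2748 with 1 sample left out. For 24 against 2 months it called 7120, and 4283 to 7467 with 1 sample left out. For 24 against 18 months it called 1, against 0 with library totals, 194 by DESeq2, 0 with the replicate block and 0 to 2 with 1 sample left out. The low counts at 18 months came without 2 month replicate 1 (382), 2 (614) or 4 (687), 18 month replicate 2 (730) or the summed sample (375), and those at 24 months without 2 month replicate 1 (4537) or 24 month replicate 2 (4656) or 3 (4283).

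With the replicate block, 4 members were called at 24 months. Ctsb, Ctsw and Ctsz were not (adjusted p 0.0727, 0.0828 and 0.0671), and neither were Ctse (0.0589), Cst6 (0.0964), Cst7 (0.0564), Scarb2 (0.117), Laptm4a (0.0823), Tfe3 (0.0685), Areg (0.0758), Adamts1 (0.0977) and Pax8 (0.0651), while Glb1 was (0.0352). The numbers were taken to pair only the 2 older ages. There no member was called with or without the block, so no call could be lost.

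Of 62 comparisons of the 46 named genes of the lists, 53 were called, of which 25 kept the call throughout and 28 lost it at least once. The genes most like Ctss and Ctsl were not among them. Genes outside the threshold changed sign in 7 cases at 24 against 2 months. Cstb was at 0.0584 with library totals and ran from -0.338 to 0.0139 with 1 sample left out, the latter without 24 month replicate 3. Gzma was at 0.206 with library totals and ran from -0.652 to 0.651 with 1 sample left out, above 0 without 2 month replicate 3 or 24 month replicate 1 (0.127) or 3 (0.342). Neu1 was at 0.062 with library totals. Without the count filter 12 calls of these genes were lost, at 24 against 2 months those of Adamts1 (-0.98), Cma1 (5.02), Cst6 (3.01), Laptm4a (0.35), Ptgfr (-1.94), Scarb2 (0.74), Tfe3 (0.30) and Tpsb2 (4.90). The cause of these shifts was not tested.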
